A study of Mus musculus with 24 samples.

Results

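Liver transcripts of mice fed 1.0% phloridzin were compared with those of mice fed 0.1% phloridzin, using 8 of the 24 arrays of the series. Phloridzin is a glucoside of apple that blocks sodium-glucose cotransport. The 1.0% diet was represented by 5 arrays (replicates 2, 3, 4, 5 and 6) and the 0.1% diet by 3 arrays (replicates 2, 4 and 5). All groups were male BALB/c mice, 6 weeks old on arrival, kept on a standard diet for a week and then fed purified AIN-93G diet with or without phloridzin for 14 days, housed 3 to a cage. The labels describe 6 mice per diet at 0, 0.1, 0.5 and 1.0% phloridzin. No control array entered the comparison, so it asks how the livers of the highest and the lowest dose differed from each other and not how either differed from untreated liver. The fit held 11 RNA samples from all 4 diets of the series, which shared 1 estimate of the spread.

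The RNA samples were chosen from measured similarity between arrays, which is given here as a description. Over 1463 well measured genes, 1.0% replicates 2, 3, 5 and 6 differed from each other by an SD of 0.0523 to 0.112 on the log2 scale, and 1.0% replicate 4 differed from them by 0.236 to 0.265. The first 4 were therefore averaged and counted as 1 RNA sample, which left 2 samples at 1.0%. The 0.1% replicates 2, 4 and 5 differed from each other by 0.264 to 0.450 and stayed 3 samples, and arrays of the 1.0% diet differed from them by 0.249 to 0.517. Joining the 1.0% replicates past an SD of 0.08 rested on the most variable genes, and without joins of that kind, with more samples, 148 genes were called in place of 2. Replicate 1 at 1.0% and replicates 1, 3 and 6 at 0.1% lay within 0.0519 to 0.0577 of each other under labels of both diets and were left out. Nothing in the labels shows that the 5 samples in use came from 5 separate mice. The p-values cover only the spread within diets among the 11 RNA samples fitted.

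The liver sets blood glucose between meals by making glucose from amino acids, lactate and glycerol and by storing or releasing glycogen. It also secretes most plasma proteins, which are folded in the endoplasmic reticulum with the help of chaperones such as Hspa5 (BiP) and Hsp90b1. When unfolded proteins collect there, transcription factors of the unfolded protein response bind a promoter motif called the endoplasmic reticulum stress element. Chaperones of the cytosol are driven by heat shock factor through a separate motif, the heat shock element. Fatty acid oxidation during fasting is driven largely by the nuclear receptor PPARA.

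Of the 44 gene lists described here, the list of endoplasmic reticulum chaperones and targets of the stress transcription factor ATF4 had the largest share of members with an unadjusted p under 0.05 (42.3%), and the promoters of 5 of its chaperones are shown because they hold the endoplasmic reticulum stress element. Capitals mark the letters matched to that element, read on either strand, and each stretch runs 5′ to 3′ along the gene's strand (RefSeq, GRCm38.p6).
Hspa5, chr2:34772013-34772055, plus strand: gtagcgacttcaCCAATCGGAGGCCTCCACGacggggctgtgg
Hsp90b1, chr10:86705521-86705668, minus strand: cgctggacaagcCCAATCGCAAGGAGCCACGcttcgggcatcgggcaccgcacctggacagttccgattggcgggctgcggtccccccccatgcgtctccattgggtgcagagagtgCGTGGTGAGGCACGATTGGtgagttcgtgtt
Pdia6, chr12:17266479-17266521, plus strand: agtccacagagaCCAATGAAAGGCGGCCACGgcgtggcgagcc
Canx, chr11:50325788-50325830, minus strand: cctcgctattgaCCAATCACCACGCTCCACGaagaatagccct
Dnajc3, chr14:118937815-118937857, plus strand: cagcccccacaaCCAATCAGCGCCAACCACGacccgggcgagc

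Such a match was found in 7 of the 24 genes of this list with a promoter window of 250 bases before to 50 bases after the start, against 0.152% of the 10542 tested genes with a window and 0.119% of all 32851 windows. The other 2 genes with a match were Calr, a lectin-like chaperone, and Creld2, a secreted stress protein. Neither had an unadjusted p under 0.05, and their promoters are not shown. Hyou1, Pdia3 and Manf had no exact match in this window. Trib3, Dnajb9 and Herpud1, on the lower side at 1.0%, were not among the 7 genes either. The motif search was added after the expression values were seen, so it describes the sequences and supports no statement about a factor. Of 17 heat shock genes, 4 held the heat shock element, against 0.617% of tested genes and 0.603% of all windows. The 4 were Hspd1, Hspe1, Hsph1 and Chordc1. Hsp90aa1, Hspa1a, Hspa1b and Dnajb1 were not among them. Of 21 PPARA genes 0 held an exact direct repeat of the PPARA response element, against 0.0474% of tested genes and 0.0396% of all windows. The mitochondrial chaperonins Hspd1 and Hspe1 lie head to head and share 1 such promoter, shown with overlapping matches in capitals.
Hspd1, chr1:55088047-55088088, minus strand: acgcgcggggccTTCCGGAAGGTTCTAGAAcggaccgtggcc

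At a Benjamini-Hochberg adjusted p under 0.05 in limma, 2 of 13068 genes differed between the diets (0.0153%), 1 higher and 1 lower at 1.0%. Nsd3, a histone methyltransferase, had log2 signals of 8.17 and 8.26 in the 1.0% samples, against 7.12, 6.61 and 6.35 in the 0.1% samples. It rose by 1.52 ± 0.21 on the log2 scale (± SE; limma adjusted p = 0.0481). The groups did not overlap on the probe set used, but 5 other probe sets of Nsd3 differed by -0.11 to 0.53. Rbmxl2, an RNA-binding protein known from male germ cells, had 3.13 and 3.00 in the 1.0% samples, against 4.90, 5.19 and 5.33 in the 0.1% samples. It fell by 2.07 ± 0.29 on the log2 scale (limma adjusted p = 0.0481). The 1.0% values lay at or next to the floor of 3.00, so the size of that difference is set by the floor.

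Of the 78 genes named here with an unadjusted p under 0.05, 51 had other probe sets, and in 16 of these at least 1 of them differed in the opposite direction. The calls of Nsd3 and Rbmxl2 were both fragile. Each was kept in 2 of 11 fits that left out 1 sample and in 6 of the 19 or 20 other settings that gave a value, and no gene was called without 1.0% replicate 4, 0.1% replicate 4 or 5, either 0.5% sample, control replicates 1 and 3 or control replicate 6. At an unadjusted p under 0.05 there were 636 genes higher (4.87%) and 960 lower (7.35%) at 1.0%. That split was 300 higher and 1624 lower after centring every array on its own median, and 75 higher and 1106 lower without scaling. The median difference of all genes was -0.03, against -0.11 and -0.18 under those 2 scalings, so directions of gene groups are read relative to it. The samples of the diets did not overlap for 1414 genes higher (10.8%) and 1936 lower (14.8%).

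**Figure D1:**
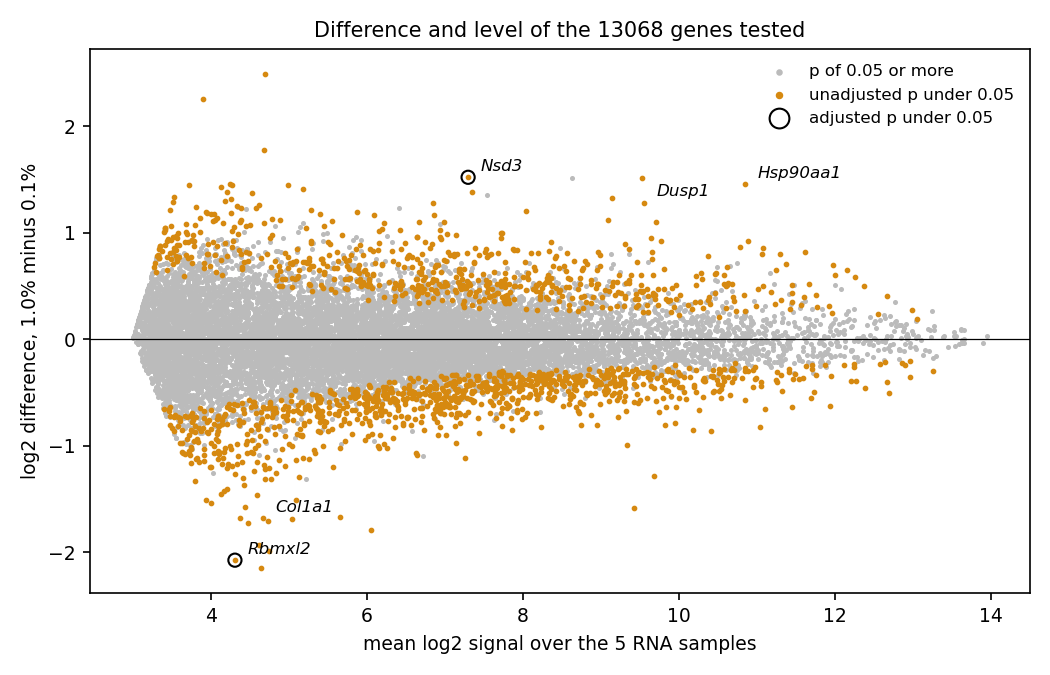
Log2 difference (1.0% minus 0.1%) against mean log2 signal of the 5 RNA samples, 1 point per gene tested. The 2 circled genes, Nsd3 at 1.52 and Rbmxl2 at -2.07, are those past the adjusted threshold, and Rbmxl2 lies among the dim genes at the left.

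The next genes by p missed the threshold, and their values are given without a call. Dusp1, a phosphatase that inactivates MAP kinases, had 10.44 and 10.21 in the 1.0% samples, against 9.17, 9.05 and 8.90 in the 0.1% samples. The difference was 1.28 ± 0.19 (limma adjusted p = 0.0628). The groups did not overlap, as was so on the higher side for 10.8% of all genes. The control samples stood at 10.27 to 10.78, near the 1.0% samples and above all of the 0.1% samples. The Dusp1 promoter held the cyclic AMP response element TGACGTCA, as did that of Btg2 among 18 immediate early genes, against 3.23% of tested genes and 1.79% of all windows.
Dusp1, chr17:26508596-26508627, minus strand: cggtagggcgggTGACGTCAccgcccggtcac

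Other transcripts that were higher at 1.0% in both samples included a ferritin receptor, a chemokine and an mRNA decay factor. Scara5, the ferritin receptor, had 8.33 and 8.04 at 1.0%, against 6.50, 6.97 and 6.93 at 0.1%, a difference of 1.38 ± 0.26 (limma adjusted p = 0.146). Its second probe set differed by 0.65. Sorbs2, an adaptor of the actin cytoskeleton, had 9.36 and 9.57 against 8.78, 8.81 and 8.43 at 0.1%, while its 3 other probe sets ran from -0.44 to 0.39. Zfp36l1, which promotes mRNA decay, differed by 0.52 ± 0.11, with 10.81 and 10.96 at 1.0%, against 10.43, 10.41 and 10.28 at 0.1%. Ccl9, the chemokine, differed by 0.53 ± 0.11 and by 0.84 on its second probe set. Clec2d, a lectin that binds an NK cell receptor, differed by 0.96 ± 0.20. Aadat, an aminotransferase of lysine and kynurenine, stood at 0.60 ± 0.13, Cxadr, a cell adhesion protein that viruses use as a receptor, at 0.69 ± 0.15, and Slc25a25, a mitochondrial carrier of ATP and phosphate, at 0.84 ± 0.18. The other probe sets of Cxadr ran from -0.17 to 0.60, and those of Slc25a25 stood at 0.31 and -0.69. The adjusted p of these last 6 genes was 0.189.

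The 10 lower transcripts with the lowest p included the following. Atp5d, a subunit of ATP synthase, had 11.60 and 11.55 at 1.0%, against 12.14, 12.28 and 12.17 at 0.1% (-0.63 ± 0.11; limma adjusted p = 0.124), but its other probe set differed by -0.02. Ndufs8, a subunit of complex I, differed by -0.63 ± 0.12, with 5 other probe sets at -0.37 to 0.18. Ndufaf8, a complex I assembly factor, differed by -0.81 ± 0.15, and its other probe set by -0.06. Slc25a39, the mitochondrial glutathione carrier, had 12.11 and 12.10 at 1.0%, against 12.49, 12.62 and 12.59 at 0.1%. In Atp5d, Ndufs8 and Ndufaf8 the difference on the probe set used was thus larger than on every other probe set of the gene.

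Lipid and sugar enzymes stood beside them. Mgll, which cleaves monoacylglycerols, had 9.59 and 9.57 at 1.0%, against 10.10, 10.23 and 10.31 at 0.1% (-0.63 ± 0.12; limma adjusted p = 0.146), and its other 3 probe sets were at -0.20 to -0.55. Aldoa, an aldolase of glycolysis, differed by -0.82 ± 0.16, with 4 other probe sets at -0.27 to -0.73. Alg2, a mannosyltransferase of N-glycan assembly, differed by -1.11 ± 0.21, Asrgl1, an asparaginase, by -1.07 ± 0.18, and Flot2, a membrane scaffold protein, by -0.82 ± 0.15. Ubald1 differed by -1.20 ± 0.23, with 5.00 and 4.69 at 1.0%, against 5.97, 6.18 and 5.97 at 0.1%. None of the 10 passed the adjusted threshold.

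**Figure D2:**
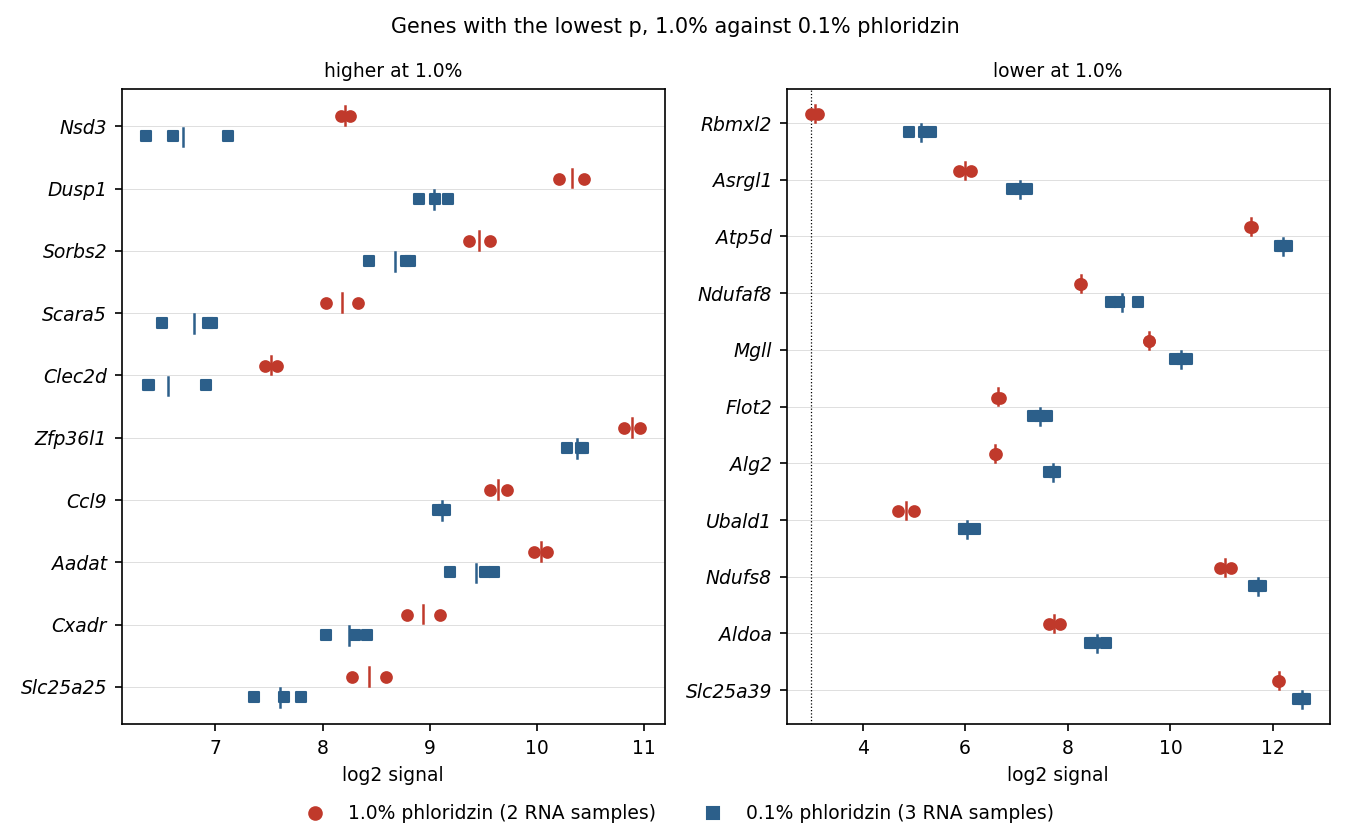
Log2 signal of the called genes and of the 10 higher and 10 lower genes with the lowest p, with 1.0% samples as red circles above 0.1% samples as blue squares and a vertical tick at each diet's mean. In all of these genes, picked by p in this comparison, the samples of the diets do not overlap, as in 25.6% of all genes. The dotted line marks the floor of 3.00 that Rbmxl2 reaches at 1.0%.

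The list of endoplasmic reticulum chaperones and ATF4 targets had 8 members higher and 3 lower at an unadjusted p under 0.05, of 26 measured, against 12.2% of all genes in either direction, and 0 passed the adjusted threshold. The list as a whole had 14 members higher and 12 lower, with a median difference of 0.04. Hsp90b1, the endoplasmic reticulum member of the Hsp90 family, had 11.87 and 11.70 at 1.0%, against 11.17, 11.44 and 10.33 at 0.1%. Hyou1, a large chaperone of the Hsp70 family, had 9.23 and 8.96 at 1.0%, against 8.16, 8.66 and 8.27 at 0.1%, and Pdia3, a disulfide isomerase, had 10.97 and 10.72 against 10.37, 10.30 and 10.01 at 0.1%. In both genes every 1.0% sample lay above every 0.1% sample.

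The other members on the higher side were the chaperone Hspa5 (0.58 ± 0.21), the co-chaperone Dnajc3 (0.73 ± 0.20), the lectin chaperone Canx (0.45 ± 0.12), the disulfide isomerase Pdia6 (0.36 ± 0.12) and the secreted protein Manf (0.47 ± 0.18). The direction of Pdia6 rested on the probe set used, since its other one, dimmer, differed by -0.42, and those of Canx ran from -0.15 to 1.08. Hspa5 itself had 12.76 and 12.45 at 1.0%, against 12.19, 12.41 and 11.47 at 0.1%, where replicate 5 was the lowest. The 3 on the lower side were the pseudokinase Trib3 (-1.09 ± 0.37), an ATF4 target, the co-chaperone Dnajb9 (-0.86 ± 0.30) and Herpud1 (-0.83 ± 0.33), which serves degradation of misfolded proteins. Herpud1 had 10.48 and 10.61 at 1.0%, against 11.44, 11.18 and 11.50 at 0.1%. Of the genes with the printed promoter motif, Calr stood at -0.02 ± 0.12 and Creld2 at 0.73 ± 0.42, with 10.58 and 9.50 at 1.0% against 9.25, 9.98 and 8.72 at 0.1%. The limma adjusted p of the members named here and in the paragraph on Hsp90b1 ran from 0.225 to 0.975.

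The counts of the endoplasmic reticulum list depended on samples and scaling. Leaving out each of the 5 samples in turn gave 5 to 10 members higher and 1 to 3 lower at an unadjusted p under 0.05, with 5 higher without 1.0% replicates 2, 3, 5 and 6. Centring each array on its median gave 6 higher and 4 lower, and the values without scaling gave 0 higher and 4 lower.

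The heat shock list held mostly cytosolic chaperones, with the mitochondrial pair Hspd1 and Hspe1 among them. At an unadjusted p under 0.05, 4 of 20 members were higher and 4 lower, against 4.87% higher and 7.35% lower among all genes. The list median was 0.06, and 0 members passed the adjusted threshold. Hsp90aa1, the stress-inducible Hsp90 of the cytosol, had 11.97 and 11.48 at 1.0%, against 10.55, 10.91 and 9.35 at 0.1% (1.45 ± 0.34; limma adjusted p = 0.192). Among its 4 other probe sets, 2 differed by 1.82 and 1.93 and 2 by 0.13 and -0.21. Stip1, which couples Hsp70 to Hsp90, differed by 0.44 ± 0.16, Hspa4l, an Hsp110-family chaperone, by 1.18 ± 0.41, and the mitochondrial Hspd1 by 0.50 ± 0.16. Hspe1, its promoter partner, stood at 0.12 ± 0.11.

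The inducible Hsp70 genes lay on the other side. Hspa1b had 8.15 and 8.79 at 1.0%, against 10.15, 10.55 and 9.47 at 0.1% (-1.59 ± 0.58), and Hspa1a had 3.75 and 4.30 against 5.31, 6.65 and 5.19 at 0.1% (-1.69 ± 0.62). The 2 genes are close copies of each other and their probe sets may share transcripts. Dnajb1, an Hsp70 partner, differed by -0.88 ± 0.34 and Hspb8, a small heat shock protein, by -0.39 ± 0.14, with other probe sets of Hspb8 at -0.11 and 0.11. The limma adjusted p of these 4 genes ran from 0.296 to 0.331. Leaving out 1 of the 5 samples gave 2 to 7 members higher and 1 to 5 lower at an unadjusted p under 0.05. With the actin 3′ to 5′ difference as a covariate there were 6 higher and 1 lower.

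**Figure D3:**
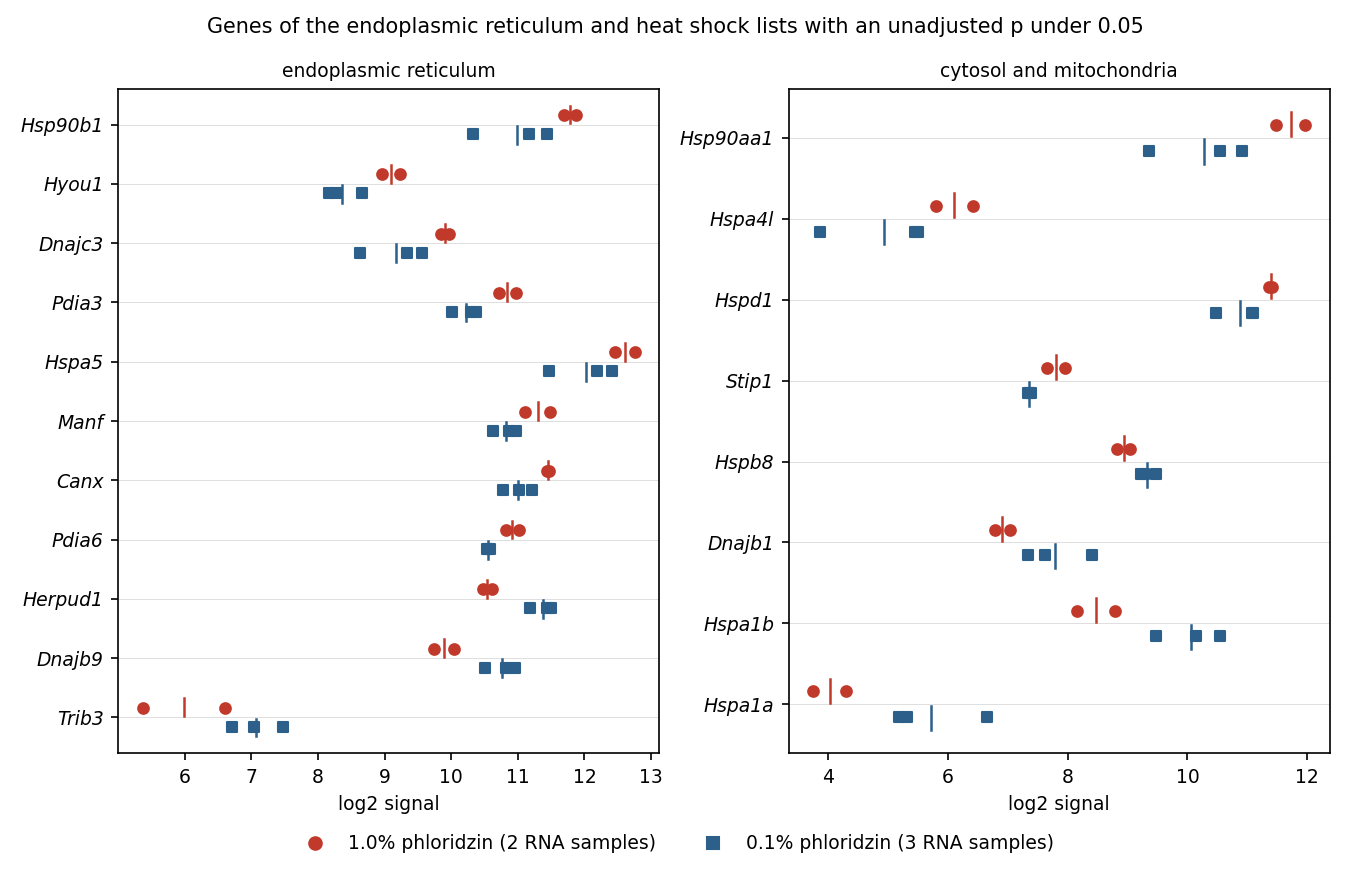
Log2 signal of the genes in the endoplasmic reticulum and heat shock lists with an unadjusted p under 0.05, with 1.0% samples as red circles above 0.1% samples as blue squares and a vertical tick at each diet's mean. In Hsp90b1, Hspa5, Hsp90aa1 and Hspa4l the lowest square, at 10.33, 11.47, 9.35 and 3.86, is 0.1% replicate 5.

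Genes of PPARA-driven fatty acid oxidation lay mostly lower at 1.0%, with 18 of 25 measured members lower and a median of -0.18, and 6 lower and 1 higher at an unadjusted p under 0.05. Of all 13068 genes 6956 were lower, and at that p 7.35% were lower and 4.87% higher. Acaa1b, a peroxisomal thiolase, had 12.24 and 12.55 at 1.0%, against 12.91, 12.79 and 13.003 at 0.1% (-0.50 ± 0.12; limma adjusted p = 0.192). Acot3, a peroxisomal thioesterase, had 3.71 and 3.00 at 1.0%, against 6.11, 4.62 and 5.79 at 0.1%. In 1.0% replicate 4 it stood at the floor of 3.00. The thioesterases Acot2 (-0.74 ± 0.22) and Acot1 (-0.95 ± 0.37), the pantetheinase Vnn1 (-0.90 ± 0.28) and the transcription factor Creb3l3 (-0.30 ± 0.10) lay on the same side. Acadm, the medium-chain dehydrogenase of mitochondria, differed by 0.50 ± 0.17 in the other direction. Between 3 and 9 members were lower at an unadjusted p under 0.05 when 1 of the 5 samples was left out, with 3 without 1.0% replicates 2, 3, 5 and 6.

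Subunits of the mitochondrial respiratory chain were lower in 28 of 41 cases, with a median of -0.10, and 8 were lower and 0 higher at an unadjusted p under 0.05, against 7.35% lower among all genes. Atp5h, of ATP synthase, had 11.79 and 12.14 at 1.0%, against 12.28, 12.44 and 12.38 at 0.1% (-0.40 ± 0.11). Its other probe set differed by -0.10. The complex I subunits Ndufv1 (-0.40 ± 0.11) and Ndufb9 (-0.35 ± 0.11) followed, with limma adjusted p values of 0.228 and 0.263. The other probe sets of Ndufv1 stood at -0.37 and -0.11, and those of Ndufb9 at -0.19 and 0.19. Leaving out 1 of the 5 samples gave 4 to 10 members lower, with 4 without either 1.0% sample.

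Glucose metabolism showed no call. In the glycolysis and fructose list 10 of 14 members were lower, with a median of -0.16, and 3 lower and 1 higher at an unadjusted p under 0.05, against 7.35% lower and 4.87% higher among all genes. Leaving out 1 of the 5 samples gave 1 to 4 lower and 0 to 2 higher, with 1 lower without 1.0% replicate 4. Khk, which phosphorylates fructose, had 11.16 and 10.89 at 1.0%, against 11.46, 11.42 and 11.38 at 0.1% (-0.40 ± 0.12). The liver pyruvate kinase Pklr differed by -0.41 ± 0.16 and Pfkfb2, which sets fructose bisphosphate, by 0.81 ± 0.37 in the other direction. Pfkfb2 had 5.05 and 4.91 at 1.0%, against 4.45, 4.82 and 3.23 at 0.1%, where replicate 5 lay next to the floor. Other probe sets of Pklr stood at 0.05 and 0.07, and those of Pfkfb2 ran from -0.30 to 0.56. Of 14 gluconeogenesis genes 2 were higher and 3 lower at that threshold, among them the transcription factor Foxo1 (-0.47 ± 0.13), pyruvate carboxylase Pcx (-0.39 ± 0.13), the aminotransferase Gpt (-0.31 ± 0.12) and the coactivator Ppargc1a (0.64 ± 0.27). Leaving out 1 of the 5 samples gave 0 to 3 higher and 1 to 4 lower, with 0 higher without 0.1% replicate 5 and 1 lower without 1.0% replicate 4. The direction of Gpt turned with the probe set, since its other one differed by 0.44. Other probe sets of Pcx ran from -0.11 to 0.24 and those of Ppargc1a from -0.35 to 1.05.

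The rate-controlling genes of glucose output overlapped between diets. G6pc, which releases free glucose, had 10.20 and 11.23 at 1.0%, against 9.99, 11.27 and 10.13 at 0.1% (0.25 ± 0.34). Pck1, the committing enzyme of gluconeogenesis, had 11.15 and 11.67 against 11.59, 11.35 and 11.08 at 0.1% (0.07 ± 0.20). Of 9 measured glucose carriers 0 had an unadjusted p under 0.05, against 12.2% of all genes. Slc5a2, the kidney sodium-glucose cotransporter that phloridzin blocks, lay at 4.37 to 5.06 at 1.0% and 4.66 to 5.16 at 0.1%, and Slc5a1, the intestinal one, at 3.21 to 3.54 and 3.00 to 3.41, next to the floor. The hepatocyte carrier Slc2a2 stood at -0.05 ± 0.16. In the list of insulin signalling and the IGF axis 13 of 19 members were lower, with a median of -0.15. At an unadjusted p under 0.05, 1 was higher and 2 lower, against 4.87% higher and 7.35% lower among all genes. The higher one was Igf1, the growth factor the liver secretes, at 0.42 ± 0.11, and the lower ones were Foxo1 and Trib3, given above. In the glycogen list 1 of 15 genes (6.67%) was lower at that p, against 7.35% of all genes. It was the kinase Gsk3a, which inhibits glycogen synthase, at -0.61 ± 0.16.

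In amino acid catabolism and the urea cycle, 5 of 25 members were higher and 2 lower at an unadjusted p under 0.05. Among all genes 4.87% were higher and 7.35% lower at that p. Of the 25 members 15 lay on the lower side, and the median was -0.10. Arg1, the arginase of the urea cycle, had 12.65 and 12.71 at 1.0%, against 12.36, 12.23 and 11.94 at 0.1% (0.50 ± 0.12; limma adjusted p = 0.192). The kynurenine hydroxylase Kmo stood at 0.30 ± 0.12, the tyrosine aminotransferase Tat at 0.31 ± 0.13 and proline dehydrogenase Prodh at -0.40 ± 0.17. Without 1.0% replicate 4 there were 1 higher and 0 lower, and without 0.1% replicate 5 there were 2 higher and 0 lower. Median-centred arrays gave 1 higher and 7 lower, and unscaled values 0 higher and 4 lower, so the side with more such genes turned with the scaling.

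Of 19 genes of bile acid synthesis and sterol transport 2 were higher and 2 lower at an unadjusted p under 0.05. Among all genes 4.87% were higher and 7.35% lower at that p. Of the 19 genes 0 passed the adjusted threshold. Nr1h4, the bile acid receptor FXR, had 8.41 and 8.49 at 1.0%, against 9.11, 9.17 and 9.19 at 0.1% (-0.71 ± 0.14; limma adjusted p = 0.178). Nr0b2, a repressor it induces, overlapped between diets (-0.46 ± 0.22). Cyp7a1, which controls the rate of bile acid synthesis, stood at 0.25 ± 0.52, and the uptake carriers Slco1a1 and Slco1b2 at 0.92 ± 0.31 and 0.70 ± 0.30, each with its lowest value in 0.1% replicate 5. Other probe sets of Slco1b2 ran from -0.28 to 1.46. Of 18 apolipoprotein and assembly genes 3 were higher and 1 lower at an unadjusted p under 0.05, beside the same shares of all genes. The higher ones were the lipid transfer protein Mttp (0.39 ± 0.13), Apoc1 (0.19 ± 0.08) and Apob (0.60 ± 0.27). The lower one was Apoa4 (-0.49 ± 0.16). Both other scalings gave 0 higher and 2 lower.

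Among male-biased growth hormone targets 4 of 18 were higher and 2 lower at that threshold, against 4.87% higher and 7.35% lower among all genes. Without scaling there were 0 higher and 2 lower. Complement C6 stood at 0.52 ± 0.15 and the glucuronosyltransferase Ugt2b38 at 0.82 ± 0.28. Differences over the 18 members ran from -0.55 to 1.08, with 10 members higher and 8 lower. In the circadian list 1 of 21 genes (4.76%) passed an unadjusted p of 0.05, against 12.2% of all genes. That gene was Per1, a clock repressor, with 3.99 and 3.00 at 1.0%, against 4.60, 5.20 and 5.43 at 0.1%. The value of 1.0% replicate 4 was the floor of 3.00. The acute phase list had 1 such gene of 25 (4%), Steap4 (0.49 ± 0.20), a metalloreductase. Saa2, a serum amyloid A, had 10.96 and 8.13 at 1.0%, against 7.998, 8.33 and 7.75 at 0.1%, so its difference rested on 1 RNA sample.

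**Figure D4:**
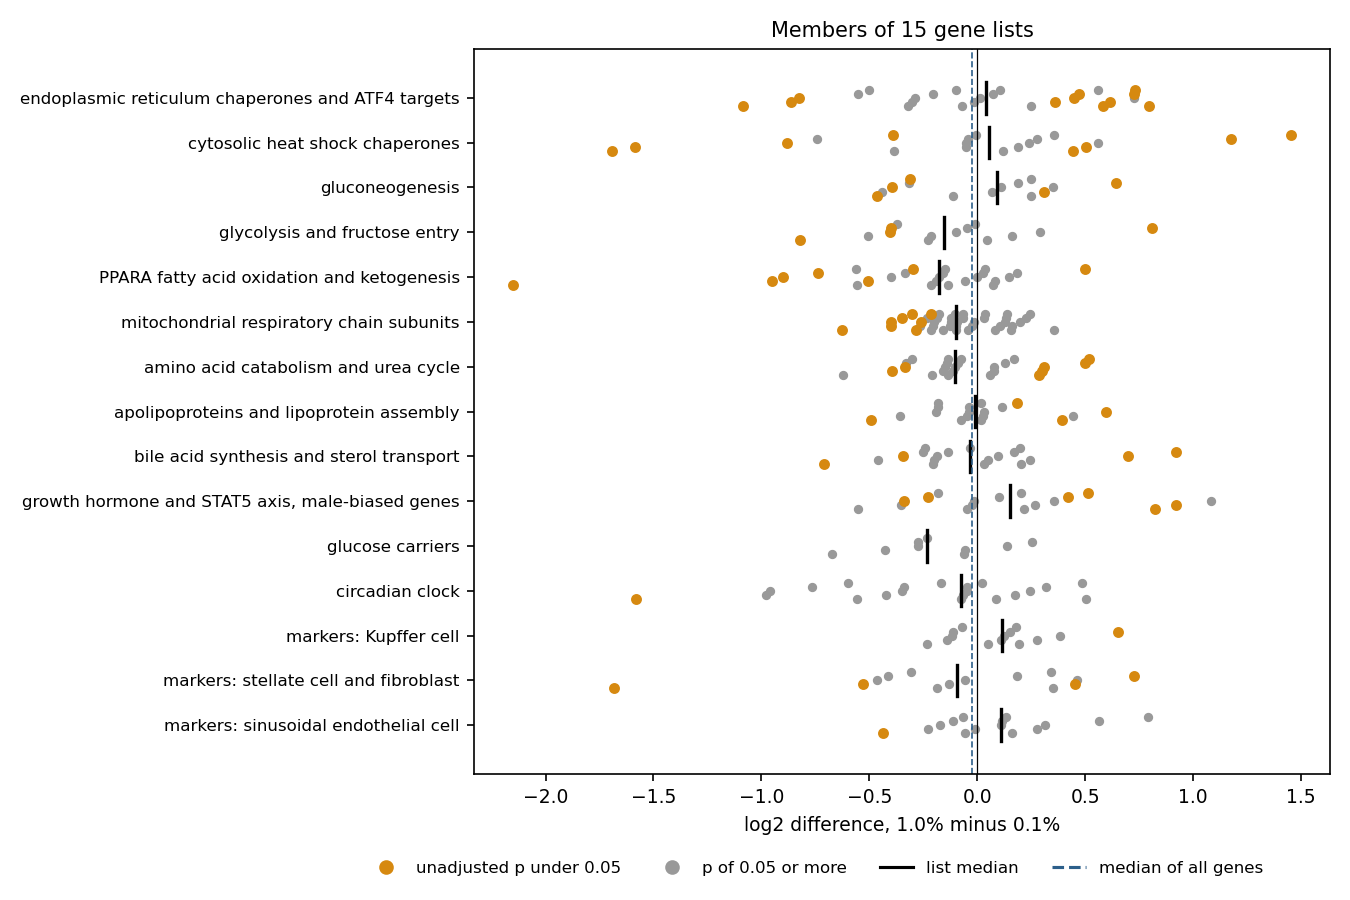
Log2 difference (1.0% minus 0.1%) of the measured members of 15 gene lists, 1 point per gene, in orange where the unadjusted p was under 0.05, with a black tick at each list median and a dashed line at the median of all genes, -0.03. The endoplasmic reticulum and heat shock lists spread to both sides, and the PPARA and respiratory chain lists lie mostly left of 0.

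Markers of other liver cells were measured beside these groups, and in bulk tissue fewer cells of a type and less RNA per cell cannot be told apart. Of 14 Kupffer cell markers 9 were higher (4 without scaling), with a median of 0.12. Leaving out 1 of the 5 samples gave 5 to 11 higher and a median of -0.11 to 0.20, with the 5 and the -0.11 without 0.1% replicate 4, so the direction of this list rested on that sample. In the fit of all samples 1 marker (7.14%) passed an unadjusted p of 0.05, against 12.2% of all genes. It was the haemoglobin scavenger receptor Cd163 (0.65 ± 0.20). The complement receptor Vsig4 stood at 0.28 ± 0.14. Of 14 stellate cell and fibroblast markers 2 were higher and 2 lower at that threshold, against 4.87% higher and 7.35% lower among all genes. The collagen Col1a1 stood at -1.68 ± 0.42, the collectin Colec11 at -0.53 ± 0.11 and the proteoglycan Dcn at 0.45 ± 0.18. Col1a1 was dim, at 4.08 and 3.24 in the 1.0% samples, against 4.88, 5.46 and 5.68 at 0.1%. Their part in the results was not tested.

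Measures of RNA quality and of the spiked controls differed between the samples. The log2 ratio of poly-A to hybridization controls was -5.03 and -3.32 in the 1.0% samples, against -2.56, -2.48 and -2.43 in the 0.1% samples, with an exact permutation p of 0.1, the smallest that 10 splits allow. The actin 3′ to 5′ difference was 1.21 and 1.51 at 1.0%, against 1.51, 2.32 and 1.48 at 0.1% (exact permutation p = 0.5), with the highest value in 0.1% replicate 4. The shortest genes by genomic span (3262 of them) lay 0.22 above their mean over all samples in 0.1% replicate 5, against -0.06 to 0.01 in the other 4 samples compared. Among those 77 genes were higher and 312 lower at an unadjusted p under 0.05, against 221 higher and 160 lower among the 3261 longest genes. The part of these measures in the gene results was not tested.

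**Figure D5:**
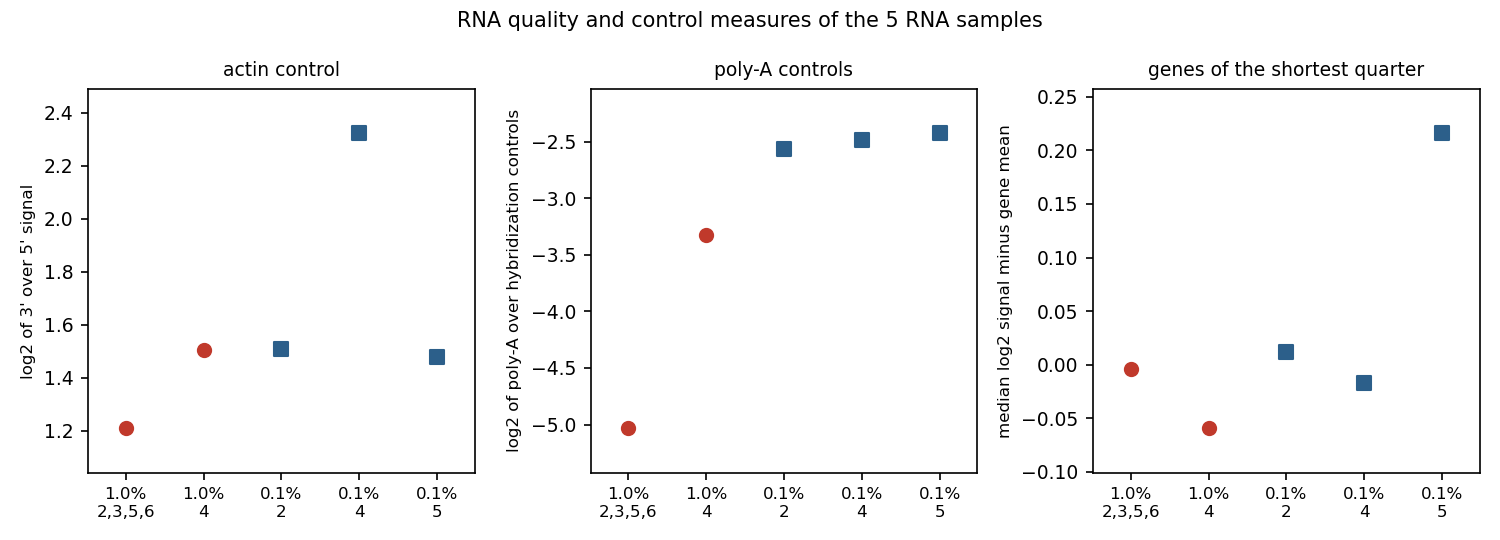
Actin 3′ over 5′ signal, poly-A over hybridization controls and the median level of the shortest genes, each on a log2 scale, in the 1.0% samples (red circles, left) and the 0.1% samples (blue squares, right). The poly-A ratio is lower in both 1.0% samples, 0.1% replicate 4 has the highest actin ratio at 2.32, and 0.1% replicate 5 stands apart in short genes at 0.22.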

How the data were processed

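Per the labels' protocols, total liver RNA was primed with oligo(dT), transcribed into biotin-labelled cRNA and hybridised to a mouse expression array. The deposited values are linear intensities of 45101 probe sets per array. How the authors summarised, background-corrected or scaled them is not given in the sources used here, and no detection calls or scan dates were used. The 24 arrays were quantile-normalized, floored at 8 and log2-transformed (log2 3.00 is the floor, which held 3.57% of sample values), so fold changes of dim genes are understated. Near-identical arrays were averaged by thresholds chosen after seeing the data. Probe sets were named from the platform annotation (34945 with 1 gene, 932 with several, 9160 unlisted). The lowest 40% were left out and the brightest probe set represented each gene (13068 genes). This filter first ranked floored sample means; after the results of 5 definitions had been seen, the mean unfloored log2 signal over 24 arrays was used because its gene count matched an earlier processing of these data. limma 3.58.1 (R 4.3.3; lmFit, eBayes with trend) fitted 11 RNA samples of 4 diets with 7 residual degrees of freedom; tests were two-sided with Benjamini-Hochberg adjustment over all genes, and the script was tested on simulated data. The comparison, its members and the 44 gene lists were chosen with earlier results of these data known. The letters of the promoter motifs searched came from general knowledge and not from the deposited files. Named genes were those called, the 10 higher and 10 lower genes with the lowest p and a mean log2 signal above 5, up to 4 members of each list by p and a panel of 64 genes (58 measured; 10 higher and 13 lower at an unadjusted p under 0.05), of which a part is named. Hspa5, Hsp90b1, Pdia6, Dnajb9, Herpud1, Stip1, Dnajb1 and Acadm were named after their p-values were seen, Calr and Hspe1 for their promoters. The number of RNA samples limits the precision.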

Additional observations from a re-analysis of the deposited data

Results flagged for a closer look

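Among 4 control samples, 21 leading genes and 4 quality measures were searched for a sample far from the rest. In Dusp1 the control sample of replicates 2 and 4 stood at a log2 signal of 10.78, above the other 3. In Ubald1 control replicate 5 stood at 5.99, above the other 3. The Gapdh 3′ to 5′ difference was -0.28 in the control sample of replicates 1 and 3. Chance flags about 1 in 20 such groups, which is 1.25 of 25. None of these samples is in the 1.0% against 0.1% comparison other than through the shared spread.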

How the results depend on the processing

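Of 31 alternatives, 18 called no gene and 7 kept both Nsd3 and Rbmxl2. The count of called genes, 2 in the report, was 0 with median-centred arrays, without scaling, with quantile normalization of the 8 arrays alone, with log2 of signal plus 16, with the lowest 60% left out, with the mean over probe sets, with the 5 samples alone, with RNA of 2 diet labels entered under both, without the trend and, as an alternative chosen after seeing the data, with the actin difference as a covariate. It was 6 without the filter, 17 at a floor of 32 and 2 at a floor of 16. Neither Nsd3 nor Rbmxl2 was among the genes called in these settings. The count was 148 without joining by fingerprint and 2108 with all 24 arrays as samples, which counts near-identical arrays as replicates. Leaving out 1 sample gave 0 to 3. The count of genes with an unadjusted p under 0.05, 1596 in the report, was 916 with the 8 arrays normalized alone, 900 with the 5 samples alone, 1041 with RNA of 2 diet labels entered under both, 2598 with the actin covariate and 4185 with all 24 arrays, and ran from 948 to 2330 when 1 sample was left out. Ranking floored sample means in the filter, the first definition tried, called 2 genes, the same ones, with 1600 at an unadjusted p under 0.05.

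With replicate number 4 as a replicate block, 0 genes were called and 809 had an unadjusted p under 0.05, in a fit of the 5 samples. The deviations of replicate 4 of both diets correlated at 0.14 over 1468 genes, against 0.14 and -0.20 for 1.0% replicate 4 with 0.1% replicates 2 and 5. Deviations from the means of so few samples are tied to each other, so these values cannot decide whether the numbers pair the samples.

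The differences of 10 genes named in the report changed sign, among them Gpt (-0.31 in the report) and Pdia6 (0.36), which turned with the choice of probe set. Centring on the median gave -0.082 for Hspe1 and -0.12 for Pck1, and no scaling gave -0.16 for Hspe1, -0.070 for G6pc and -0.20 for Pck1. The mean over probe sets gave -0.029 for Pdia6, 0.034 for Calr and 0.066 for Gpt, and Gpt stood at 0.44 without probe sets marked x or s. All 24 arrays gave 0.22 for Slc5a2, -0.12 for Slc5a1 and -0.12 for Pck1, which was -0.017 without joining by fingerprint and -0.0090 with RNA of 2 diet labels under both. Leaving out 1 sample gave ranges across 0 for Cyp7a1 (-0.46 to 0.79), G6pc (-0.26 to 0.76), Pck1 (-0.19 to 0.33), Slc5a2 (-0.62 to 0.074), Slc5a1 (-0.026 to 0.30), Slc2a2 (-0.18 to 0.056) and Calr (-0.057 to 0.014). The causes were not tested.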
